A study of Mus musculus with 6 samples.

Results

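The 47 genes described here encode proteins of the cytosolic ribosome. They are all the genes on the array whose symbol follows the ribosomal protein pattern (Rps or Rpl and a number, or Rplp0, Rplp1, Rplp2 or Rpsa) and that have a probe set annotated to that symbol alone. 22 belong to the small subunit and 25 to the large subunit, and together they have 95 probe sets, out of 10290 genes with a single-symbol probe set and 19551 probe sets that are not array controls. RNA was taken from the anterior presomitic mesoderm (PSM), the tissue that segments into somites, of mouse embryos at embryonic day 8.75 on a background given as C57BL6/6J. The 3 control pools were R26R AC/AC, and the 3 mutant pools were R26R AC/AC;T-Cre, so both genotypes carried the AC allele and differed by the Cre. The labels do not expand AC; background knowledge of the study gives it as A-CREB, which blocks CREB transcription factors in a dominant-negative way once Cre has acted. T-Cre is driven by the promoter of T (Brachyury), active in the primitive streak and the mesoderm it forms. Each pool held 3 PSMs and gave 1 array. There was no T-Cre pool without the AC allele, and no probe set was annotated to the AC transgene, so neither the effect of Cre alone nor the extent of recombination was measured.

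The ribosome is built from ribosomal RNA and about equal numbers of copies of each ribosomal protein, and cells that grow fast, such as those of the early embryo, make it in large amounts. Messenger RNAs of ribosomal proteins typically begin with a C followed by an unbroken run of pyrimidines, the 5′ terminal oligopyrimidine (TOP) motif, through which mTOR signalling controls their translation rather than their abundance. Free ribosomal proteins such as Rpl5 and Rpl11 bind Mdm2 and thereby stabilise p53, and mouse mutants of several ribosomal proteins have defects of the axial skeleton or of pigment.

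The bases around the start of transcription were searched for a run of pyrimidines. RefSeq promoter windows (build GRCm38.p6, 250 bases before to 50 after each annotated start) were found for 41 of the 47 genes, in 48 windows. In the stretches below, 15 bases before and 15 after the start are given 5′ to 3′ on the gene's strand, and capitals mark an unbroken run of at least 5 C or T that covers the start base. The first is shown because Rps27 was the single gene called, the next 4 because they carry the run and are described below (the first of 2 annotated starts for Rps24), and the last 3 because they lack it, among them the close copy of Rps27.
Rps27, chr3:90213634-90213663, minus strand: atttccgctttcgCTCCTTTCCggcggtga
Rps6, chr4:86857353-86857382, minus strand: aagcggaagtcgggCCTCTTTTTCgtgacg
Rps18, chr17:33955651-33955680, minus strand: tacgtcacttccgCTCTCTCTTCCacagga
Rpl38, chr11:114668565-114668594, plus strand: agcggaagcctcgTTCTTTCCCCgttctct
Rps24, chr14:24490663-24490692, plus strand: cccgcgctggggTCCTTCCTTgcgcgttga
Rps27l, chr9:66946071-66946100, plus strand: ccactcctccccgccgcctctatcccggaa
Rpl11, chr4:136053379-136053408, minus strand: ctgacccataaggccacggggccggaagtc
Rpl22l1, chr3:28805493-28805522, plus strand: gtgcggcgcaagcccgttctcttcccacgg
Such a run covered the start in 13 of 48 ribosomal protein windows (27.1%) and in 10.1% of all 32851 windows. The run depends on the exact base annotated as the start, and windows without it may have their start a few bases away. The run may begin before the start base, and that base need not be a C, so this is a looser criterion than the TOP motif. The full CREB site TGACGTCA stood in 2 of 48 windows (4.17%), those of Rps9 and Rpl27a, and in 1.79% of all windows. Its core TGACG, which lies within the full site and was searched on both strands, stood in 20 of 48 windows (41.7%) and in 20.8% of all windows. A match is a description of the letters and not evidence of binding.

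Of the 47 genes, 45 passed the filter on low signal and were tested, each by its brightest single-symbol probe set. Signals are the authors' scaled array intensities, and differences are mutant minus control on the log2(signal + 1) scale, tested with limma across all 7245 genes. The test found 1 of the 45 genes, Rps27, lower in mutant pools at a Benjamini-Hochberg adjusted p under 0.05, and 0 higher, while 1.7% of all tested genes were called (1.1% lower and 0.594% higher). Rps27 is the outlier for which the family was singled out, and it passed the signal filter only through its control values, so this call is a description and not a test of the family. At an unadjusted p under 0.05 the count was also 1 of 45, again Rps27, against 15% of all genes. The 3 mutant values lay entirely outside the 3 control values for 3 of 45 genes, namely Rps18 above and Rps27 and Rpl22l1 below, against 21.2% of all genes.

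The differences of the family were small and close together. The median was 0.05 (quartiles 0.02 and 0.06), with 37 genes positive and 8 negative, beside a median of −0.01 and quartiles of −0.15 and 0.12 over all tested genes. The signs moved with scaling: 29 of 45 were positive after median centring (median 0.01, with −0.04 over all genes) and 19 of 45 after quantile normalization (median −0.00). Quantile normalization gives every array the same set of values, which holds the brightest probe sets, where most of the family lies, close to equal. For the 36 tested genes with a geometric mean signal above 10000, a boundary chosen after the signals were seen, the differences ran from −0.15 to 0.14. The 95% confidence intervals of these 36 reached from −0.34 at the lowest to 0.36 at the highest. Changes in scaled signal larger than 1.28-fold up or to less than 0.788 of the control signal lay outside each of them. These bounds hold for the brightest probe sets, where saturation was not assessed, and not for dimmer probe sets of the same genes. These intervals describe the spread between pools that the labels call biological replicates. In bulk tissue, fewer cells of a type and less RNA per cell cannot be told apart.

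**Figure D1:**
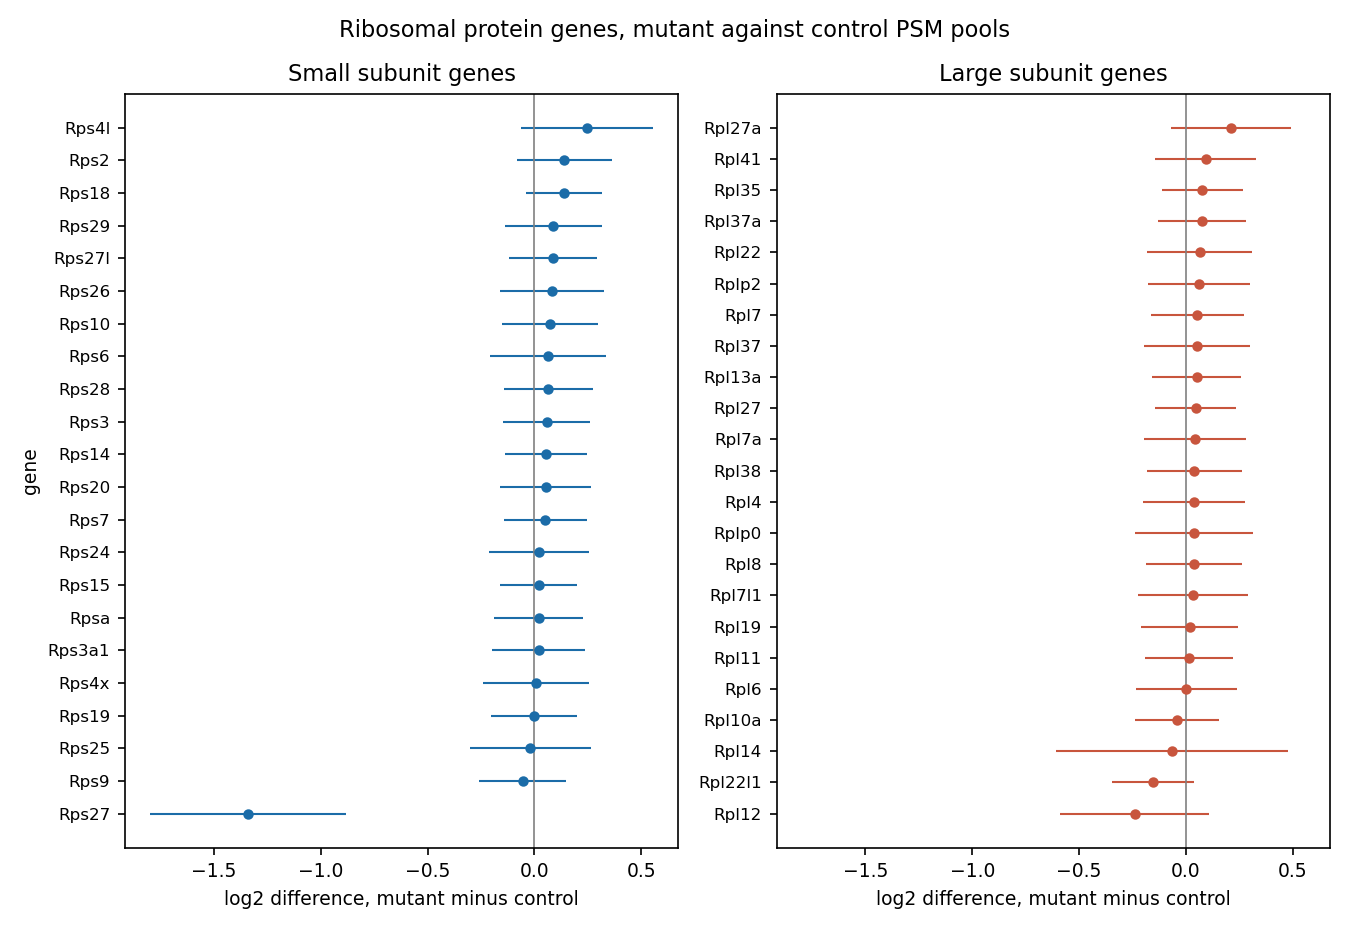
Log2 difference of signal (mutant minus control, horizontal axis) of the 45 tested ribosomal protein genes, small subunit left and large subunit right. Points are limma estimates from 3 pools per genotype and bars are 95% confidence intervals. Rps27 at −1.34 stands apart, while every other interval includes 0.

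The 22 small subunit genes had a median of 0.05 with 18 positive and 1 called, and the 23 tested large subunit genes had a median of 0.04 with 19 positive and 0 called. Without the genes that are paralogs of other members, the medians were again 0.05 (20 genes) and 0.04 (21 genes).

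Among small subunit genes other than Rps27, those with the largest positive differences were Rps4l, Rps2, Rps18 and Rps29. Rps4l, a copy of Rps4x, gave signals of 3244, 3606 and 3715 in control pools and 4590, 4723 and 3341 in mutant pools, a difference of 0.25 (SE 0.14, adjusted p = 0.446). The first 2 mutant pools were the highest and the third lay among the controls. Rps4x itself gave 29654, 32692 and 26284 in control pools and 27119, 27935 and 34083 in mutant pools, a difference of 0.01 (95% interval −0.24 to 0.25, adjusted p = 0.986). Rps18, a protein of the head of the small subunit, gave 33112, 32263 and 29087 in control pools and 34245, 35225 and 34391 in mutant pools. Its groups did not overlap, yet the difference was 0.14 (SE 0.08, 95% interval −0.04 to 0.32, adjusted p = 0.451). The other bright probe sets of Rps18 had overlapping groups, with differences of 0.06 and 0.08. Rps2 gave 23738, 25580 and 23893 in control pools and 24914, 25152 and 31029 in mutant pools, where a single mutant pool was high and the rest overlapped (0.14, SE 0.10, adjusted p = 0.561). Rps29 had a difference of 0.09 (SE 0.10, adjusted p = 0.739). At the other end, Rps9, Rps25 and Rps19 had differences of −0.06, −0.02 and −0.00, with SEs of 0.09 to 0.13 and adjusted p of 0.832 or more. Another bright probe set of Rps9 differed by −0.00. A dimmer one differed by −0.40 with overlapping groups (SE 0.19, limma adjusted p = 0.399 over all probe sets). With probe sets of several symbols admitted, brighter ones stood for Rps2 and Rps25, with differences of 0.03 and 0.04 (adjusted p = 0.928 and 0.870).

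The small subunit genes known from regulation or from mouse mutants had overlapping groups in their brightest single-symbol probe sets. Rps6, the ribosomal target of S6 kinase, gave 4291, 3742 and 3434 in control pools and 3997, 4448 and 3550 in mutant pools, which overlapped (0.06, SE 0.12, adjusted p = 0.856). A brighter probe set of several symbols that could stand for Rps6 differed by 0.03 (adjusted p = 0.926). Rps20, which like Rps19 is mutated in mice with dark skin and raised p53, gave 36456, 37913 and 33116 in control pools and 34139, 35779 and 41794 in mutant pools (0.05, SE 0.10, adjusted p = 0.849). The highest value came from 1 mutant pool and the other mutant values lay among the controls. Another bright probe set of Rps20 differed by 0.06, and dimmer ones by −0.26 and −0.25 (limma adjusted p = 0.480 and 0.506 over all probe sets). The one at −0.26 gave 513, 455 and 453 in control pools and 404, 350 and 434 in mutant pools. Its groups did not overlap, which also held for 20% of all probe sets. Rps3 and Rps7, which can bind Mdm2, had differences of 0.06 and 0.05, and Rpsa, also known as a laminin receptor, of 0.02, each with an SE of 0.09 and an adjusted p of 0.818 or more.

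In the large subunit the extremes were Rpl27a and Rpl12. Rpl27a, mutated in the mouse line sooty foot ataxia, gave 905, 988 and 852 in control pools and 1099, 1133 and 949 in mutant pools, a difference of 0.21 (SE 0.13, adjusted p = 0.478), and the third mutant pool overlapped the controls. With probe sets of several symbols admitted, a brighter one stood for Rpl27a and its difference was 0.02 (adjusted p = 0.937). Rpl12, at the base of the ribosomal stalk, gave 1447, 1993 and 2110 in control pools and 1418, 1490 and 1745 in mutant pools, a difference of −0.24 (SE 0.16, 95% interval −0.59 to 0.11, adjusted p = 0.518). Its first control pool lay among the mutants. With arrays weighted by their quality Rpl12 was called lower, at −0.44 and an adjusted p of 0.0254, in a fit that called 943 genes. The brighter probe set of several symbols that could stand for it differed by 0.06 (adjusted p = 0.851). Rpl41, Rpl35 and Rpl37a were the next highest with differences of 0.09, 0.08 and 0.07, and adjusted p from 0.736 to 0.769. The single-symbol probe set of Rpl14 varied more than that of any other tested member, with 4438, 2531 and 3318 in control pools and 2387, 2942 and 4623 in mutant pools (−0.07, SE 0.25, adjusted p = 0.930). With probe sets of several symbols admitted, a brighter one stood for Rpl14 and differed by 0.06 (SE 0.09, adjusted p = 0.822). Rpl10a, the protein of the L1 stalk, had a difference of −0.04 (SE 0.09, adjusted p = 0.868).

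Rpl22l1 and Rpl22 are paralogs, and Rpl22 is known to repress Rpl22l1. Rpl22l1 gave 17868, 18581 and 16633 in control pools and 15019, 16335 and 16330 in mutant pools, all 3 mutant values below all controls. The difference of −0.15 did not pass the test (SE 0.09, 95% interval −0.34 to 0.04, adjusted p = 0.436). Rpl22 gave 27275, 29776 and 25128 in control pools and 25882, 26952 and 33394 in mutant pools, which overlapped (0.06, SE 0.11, adjusted p = 0.840). A further paralog pair, Rpl7l1 and Rpl7, had differences of 0.03 and 0.05 (SE 0.12 and 0.10). Dimmer probe sets of Rpl7l1 differed by 0.38 and −0.08 with overlapping groups (SE 0.18 and 0.22, limma adjusted p = 0.392 and 0.914 over all probe sets).

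Rpl11, the sensor of ribosomal stress named above, gave 24976, 25055 and 22359 in control pools and 22742, 23619 and 26886 in mutant pools, with overlapping groups (0.02, SE 0.09, 95% interval −0.19 to 0.22, adjusted p = 0.961). Rpl38, whose mutation in mice alters the axial skeleton, gave 31644, 33235 and 28716 in control pools and 29834, 30116 and 36483 in mutant pools (0.04, SE 0.10, 95% interval −0.18 to 0.26, adjusted p = 0.901). The stalk protein Rplp0 gave 27944, 30383 and 23844 in control pools and 25482, 25750 and 33300 in mutant pools (0.04, SE 0.12, adjusted p = 0.925). In all 3 genes the groups overlapped, and the third mutant pool had the highest value. Rplp2, its partner in the stalk, had a difference of 0.06 (SE 0.11, adjusted p = 0.845). The single-symbol probe sets of Rpl39 and its paralog Rpl39l were not tested, because their geometric mean signals, 321 and 40.5, lay below the filter. Their signals on single arrays ran from 302 to 400 and from 31.7 to 55.8. With probe sets of several symbols admitted, a bright one stood for Rpl39, with a geometric mean signal of 25919. Its difference was −0.01 (SE 0.11, adjusted p = 0.986). Rpl3, Rpl3l, Rpl5, Rpl10, Rpl10l, Rpl23, Rpl24, Rpl26 and Rplp1 had no single-symbol probe set in the table used.

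Rps27 encodes a zinc finger protein of the small subunit. Its single-symbol probe set gave 435, 769 and 563 in control pools and 201, 248 and 230 in mutant pools, or 589 ± 168 against 227 ± 23.8 (SD, n = 3 pools each). All mutant values were below all controls. The geometric mean signal of the probe set, 360, lay just above the filter at 349, and all 3 mutant values lay below it. Rps27 was the single tested member with every value of a genotype below the filter, so its difference is taken against signals that the filter treats as low. The log2 difference was −1.34 (SE 0.21, 95% interval −1.80 to −0.88), with a limma adjusted p of 0.0123. It was known when the genes were chosen and is given as a description.

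The call changed with the filter and with single pools. Leaving out control pool 1, 2 or 3 brought the probe set below the filter, so that it was not tested. Leaving out mutant pool 1 or 2 gave adjusted p of 0.0791 and 0.0622, and leaving out mutant pool 3 gave 0.0237. With no filter on signal, the adjusted p was 0.0110 with all arrays and from 0.000754 to 0.0776 with 1 array left out, and it was above the threshold only without mutant pool 1.

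A brighter probe set, whose annotation lists Rps27 together with Rps27rt and which the single-symbol rule therefore leaves out, did not show the difference. It gave 20473, 20962 and 19361 in control pools and 17840, 19796 and 22372 in mutant pools, or 20266 ± 821 against 20002 ± 2273 (SD, n = 3), and the groups overlapped. Its log2 difference was −0.02 (SE 0.10, 95% interval −0.24 to 0.19, adjusted p = 0.943 in a fit of all 11731 probe sets), an interval that does not reach the −0.88 bound of the single-symbol probe set. In that fit the dim probe set had an adjusted p of 0.0300, and 0.69% of all probe sets were called (0.443% lower). The close copy Rps27l, a p53 target gene, has 3 probe sets, all bright, with differences of 0.09, 0.17 and 0.15 and overlapping groups. The most intense of them gave 18585, 20330 and 18155 in control pools and 18762, 19776 and 22180 in mutant pools (SE 0.09, adjusted p = 0.721). The files used here do not say which part of the transcript each probe set covers, and which of the probe sets follows the main Rps27 transcript was not tested.

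**Figure D2:**
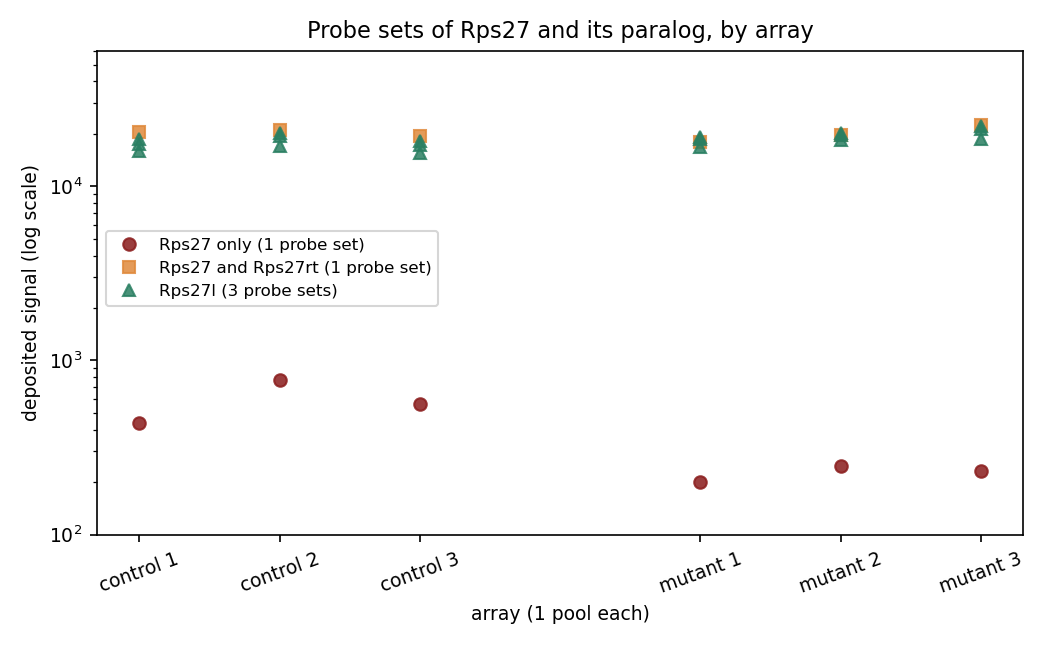
Deposited signal (log scale) on each of the 6 arrays of the probe set annotated to Rps27 alone, the one annotated to Rps27 and Rps27rt, and the 3 of Rps27l. The first lies at 435 to 769 in control pools and 201 to 248 in mutant pools, and the others overlap between genotypes.

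Admitting probe sets that list exactly 1 ribosomal protein symbol among several, an alternative chosen after seeing the data, extended the family to 74 genes, of which 73 were tested. In that limma fit, 0 of the 73 were called, beside 122 of all 7273 genes. Of the 73, 0 had an unadjusted p under 0.05, beside 15% of all genes in the main fit. The differences of the 73 ran from −0.15 to 0.25, with 8 negative.

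Probe sets of the same gene disagreed by brightness. The 70 single-symbol probe sets with a geometric mean signal above 10000 differed by −0.15 to 0.17 (median 0.05, 10 negative), and 0 of them had an unadjusted p under 0.05. Of the 25 below it, 17 were negative, the range was −1.34 to 0.38 and the median −0.07. Of these 25, 20 passed the filter, 2 had an unadjusted p under 0.05 and 1, that of Rps27, was called, beside the 13.6% and 0.69% of all probe sets that reached each threshold. The same split appeared among the 103 probe sets that list a ribosomal protein among several symbols, where 7 of 80 bright and 14 of 23 dim ones were negative. Over all tested genes 52.4% of differences were negative, a share nearer to that of the dim probe sets than to that of the bright ones.

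Rps24 gives the clearest case within a gene, and was picked with Rpl5 after the values were seen. Its 4 bright probe sets differed by 0.02 to 0.07. Its dim probe set gave 1667, 1749 and 2112 in control pools and 974, 1204 and 1574 in mutant pools, all mutant values below all controls (−0.58, SE 0.18, unadjusted p = 0.00993, adjusted p = 0.203). The probe sets listing Rpl5, the partner of Rpl11 in binding Mdm2, together with Rpl5-ps2 had the same form. The bright one differed by 0.08 (adjusted p = 0.788). A dim one gave 3969, 3600 and 3842 in control pools and 2396, 2872 and 2854 in mutant pools, without overlap (−0.49, adjusted p = 0.0866). Dim probe sets listing Rps12 and Rpl24 went the other way, by 0.43 and 0.32, with all mutant values above all controls (limma adjusted p = 0.209 and 0.334). Among the 25 dim single-symbol probe sets, 3 lay below the controls without overlap and 0 above. Among the 23 dim ones of several symbols, 1 lay below and 2 above, where 20% of all probe sets did not overlap. None of the dim probe sets of Rps24, Rpl5, Rps12 and Rpl24 passed the test. Of the 20 genes with more than 1 single-symbol probe set, 11 had differences of both signs.

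**Figure D3:**
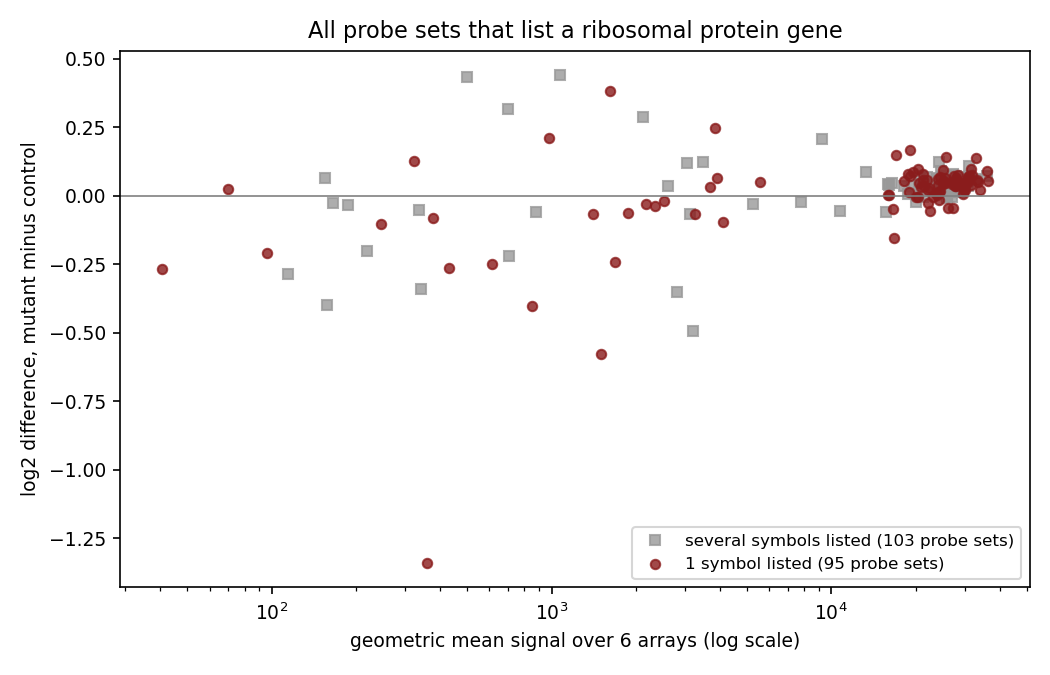
Log2 difference (mutant minus control, vertical axis) against geometric mean signal over 6 arrays (log scale) for the 95 single-symbol probe sets and the 103 that list a ribosomal protein among several symbols. Above a signal of 10000 all 70 single-symbol probe sets lie between −0.15 and 0.17, and below it they spread from −1.34 to 0.38.

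The members' signals varied together from array to array, within each genotype. Mutant pool 3 had the highest signal for 35 of the 45 tested genes, and control pool 3 the lowest for 30. The family's median log2 signal, relative to each gene's mean over the 6 arrays, was −0.01, 0.07 and −0.12 in control pools 1 to 3 and −0.08, −0.04 and 0.18 in mutant pools 1 to 3. Small and large subunit genes followed the same course, with medians no more than 0.03 apart on any array. Over all tested genes the array medians lay within −0.02 and 0.01. The 3′ probe set of the cre hybridization control, an RNA added before hybridization, stood at −0.07, 0.07 and −0.14 in control pools and −0.03, −0.05 and 0.22 in mutant pools, on signals of 27219 to 34968. Its sequence is that of the phage cre gene, so in mutant pools the added RNA and any Cre transcript of the embryos cannot be told apart. In the control pools, which carry no Cre, it had the same order as the family. The dimmer bioD control had another course, with 11142, 12125 and 11012 in control pools and 13275, 12653 and 13241 in mutant pools on its 3′ probe set, all mutant values above all controls. The 3′ probe set of bioC was likewise higher in every mutant pool, by 0.34 on the log2 scale, and that of bioB stood at 837 on control 1 and at 116 to 181 on the other 5 arrays. After quantile normalization the range of the family's array medians shrank from 0.30 to 0.02. The part of array intensity in the family's course was not tested.

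**Figure D4:**
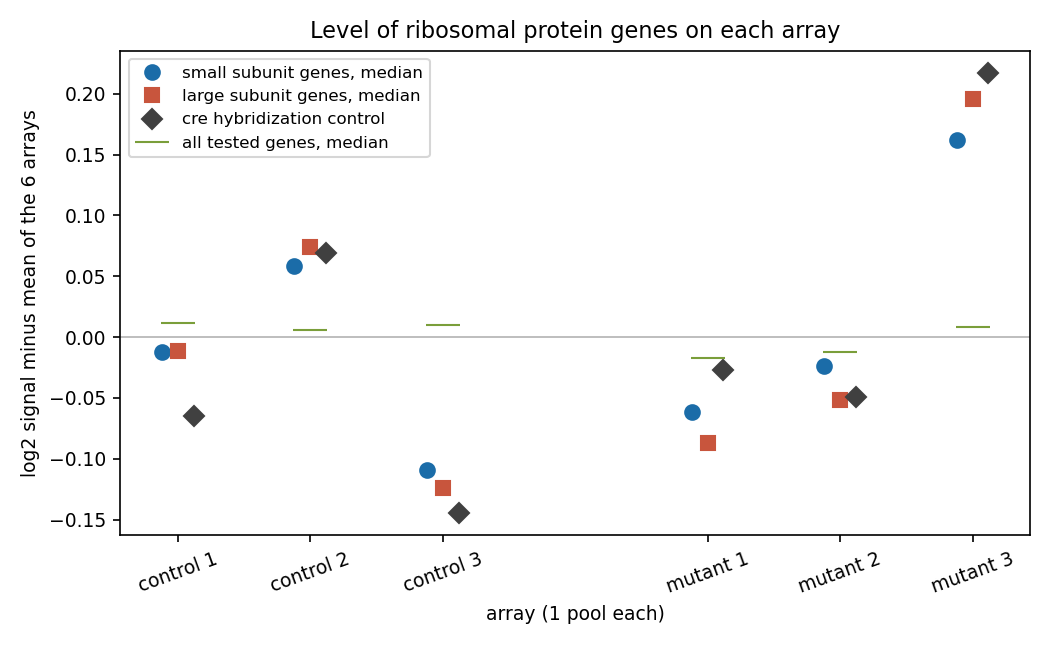
Log2 signal minus the mean of the 6 arrays, for the median of small subunit genes, of large subunit genes and of all tested genes, and for the 3′ probe set of the cre hybridization control, on each array. Both subunits and this control are lowest in control pool 3 and highest in mutant pool 3, while the median of all genes stays within −0.02 and 0.01.

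The arrays also split by the 3′ to 5′ signal ratio of the dap labelling control, above 15 on control 1, mutant 1 and mutant 2 (19.6 to 23.8) and below it on the other 3 (10.2 to 12.2). Within the high-ratio arrays the family's median difference was −0.05, and within the low-ratio arrays it was 0.21, with only 1 pool for the control or the mutant in each. The single-symbol probe set of Rps27 was lower in mutants within both sets, by −0.96 and −1.51. Genes with the pyrimidine run in a start window had a median difference of 0.05 over 12 tested genes and those without it 0.04 over 27. Genes with TGACG had a median of 0.05 over 20 and those without it 0.02 over 19.

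Genes that make and regulate ribosomes were read from the same fit, in which 1.1% of all genes were called lower, 0.594% were called higher and 15% had an unadjusted p under 0.05. Fau, which encodes a small subunit protein outside the naming pattern, had a difference of 0.00. Of 13 tested genes of ribosomal RNA transcription, 1 fell and 0 rose (median 0.04), and that gene was also the 1 with an unadjusted p under 0.05. It was Twistnb, a subunit of RNA polymerase I, at 3418, 3164 and 3112 in control pools and 2298, 2345 and 2203 in mutant pools (−0.50, SE 0.10, adjusted p = 0.0375). Of 50 genes of ribosomal RNA processing and modification, 3 fell, 0 rose and 10 had an unadjusted p under 0.05 (median −0.00). Rrp1, a nucleolar processing factor, gave 3076, 4094 and 3592 against 1906, 1699 and 2260 (−0.88, SE 0.14, adjusted p = 0.0145). Its relative Rrp1b gave 4262, 3481 and 3388 against 2255, 2175 and 2396 (−0.70, SE 0.12, adjusted p = 0.0172). Exosc7, a subunit of the RNA exosome, gave 3673, 3624 and 3837 against 2394, 2229 and 2483 (−0.65, SE 0.10, adjusted p = 0.0123). In these 4 genes no mutant value reached a control value. With 1 pool left out in turn, the limma call held in 1 of 6 fits for Twistnb, 2 for Rrp1, 3 for Exosc7 and 4 for Rrp1b, with adjusted p up to 0.145, 0.0891, 0.0782 and 0.0941.

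The next groups held no calls, beside 1.7% of all genes called and 15% at an unadjusted p under 0.05. Of 49 genes of subunit assembly and export 0 were called, with 5 at an unadjusted p under 0.05, and the smallest p was that of Noc4l, an assembly factor of the small subunit (−0.64, adjusted p = 0.0538). Of 31 translation factors 0 were called in limma and 1 had an unadjusted p under 0.05 (median −0.00). Of 15 genes of mTOR control 0 were called and 3 had an unadjusted p under 0.05. Eif4ebp1, a repressor of cap-dependent translation that mTOR inactivates (0.32, limma adjusted p = 0.155), and Ddit4, an inhibitor of mTOR (0.60, adjusted p = 0.178), had positive differences. Rictor had a negative one (−0.27, adjusted p = 0.328). Of 5 genes linking ribosomal proteins to p53, 0 were called and 2 had an unadjusted p under 0.05, Mdm2 at 0.39 (adjusted p = 0.212) and Nop53 at −0.37 (adjusted p = 0.161). Of 11 genes of ribosome quality control 0 were called and 0 had an unadjusted p under 0.05.

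The 76 mitochondrial ribosomal protein genes, which build the separate ribosome of that organelle, had a median of 0.13 with 58 positive. Of these, 1 fell and 0 rose, beside 1.1% and 0.594% of all genes, and 19 of 76 had an unadjusted p under 0.05, beside 15%. Mrpl55 gave 1444, 1362 and 1439 in control pools and 871, 1025 and 820 in mutant pools (−0.65, SE 0.13, adjusted p = 0.0327), a call that held in 1 of 6 fits with a pool left out (adjusted p up to 0.150). Without overlap, 24 of the 76 were above the controls and 5 below, where all genes had 9.73% above and 11.5% below.

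The labelled tissue was checked with its markers, and marker levels of several tissues differed between the same pools. Summed signals of PSM markers (9 of 11 with a probe set, with Lfng and Mesp2 below the filter) were 10008 to 12469 in control pools and 5502 to 8326 in mutant pools. Those of surface ectoderm (8 of 8, with Trp63 and Grhl2 below the filter) were 15004 to 16756 and 22384 to 24182. Those of blood (6 of 9, with Gata1 and Klf1 below the filter) were 31573 to 44014 and 44356 to 62120. Those of endothelium (5 of 8) were 9272 to 10103 and 4974 to 7578, and those of lateral and intermediate mesoderm (5 of 7, with Pax8 below the filter) 5312 to 5591 and 2714 to 3375. Gut markers (7 of 7) spanned 5091 to 9197 and 7730 to 23256, and neural tube markers (4 of 6, with Sox1 and Pax6 below the filter) 5892 to 7232 and 6311 to 8353, both with overlap. The gut sum hides both directions. Of its genes 6 had positive differences, while Sox17 was called lower (−1.06, limma adjusted p = 0.0250), as were 1.1% of all genes. The part of cell makeup in the differences above was not tested.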

How the data were processed

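Total RNA of 6 pools (3 control, 3 mutant) was labelled with a 3′ IVT kit and hybridized to Affymetrix arrays, per the labels' protocols. The deposited intensity values are linear scaled signals, 1 per probe set and array; Affymetrix Expression Console and MAS5 are named in the submitters' processing notes, and the scaling target is not given in the sources used here. No scanner files or detection calls were analysed, so saturation was not assessed. Pools were treated as unpaired. The residual r of pools with equal replicate numbers was 0.12, −0.45 and 0.35. It was not set beside that of unequal numbers, so pairing by number was not tested.

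Values were analysed as log2(signal + 1) with limma 3.58.1 (R 4.3.3), a two-sided test (eBayes with trend) whose p was Benjamini-Hochberg adjusted over 7245 genes and called under 0.05. Probe sets under the 40th percentile of mean log2 signal (349) were left out, and each gene was read from its brightest single-symbol probe set. The script was tested on simulated data. Symbols came from the platform annotation, and all 47 matched RefSeq by Entrez ID. The number of arrays limits the precision. Members and lists were chosen with earlier results of these data known. Named members are those called, the 4 highest and 4 lowest of each subunit, paralogs with their partners, genes of p53 control or mouse mutants, and the stalk proteins; from other lists up to 3 genes with the smallest p. Alternatives were offsets of 16 and 64, quantile normalization, median centring, other filters, no trend, array weights, blocks, probe set rules, a looser threshold and leaving out each pool.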

Additional observations from a re-analysis of the deposited data

How the results depend on the processing

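The medians of the family and of each subunit moved by less than the spread between pools under each alternative run, and 0 members were called higher in any. Members called lower numbered 0 with a filter at the 60th percentile (Rps27 then untested, 44 members tested), 2 with array quality weights (Rpl12 and Rps27), 0 with several-symbol probe sets admitted, and 0 to 1 with 1 pool left out. All genes called numbered 74 with the 60th percentile filter, 943 with array weights, 472 with the spike-in ratio as a block, 270 at adjusted p under 0.1, and 20 to 228 with 1 pool left out, against 123. With several-symbol probe sets admitted, 122 genes were called. A replicate block, which treats pools of equal number as pairs, called 1 member (Rps27, limma adjusted p = 0.00148) and 176 genes. With 1 pool left out the family's median ran from −0.03 to 0.10 and the small minus large difference from −0.01 to 0.04. Of 30 named members in these fits, 23 changed sign in some setting, and none of the 23 was called in the analysis as reported. The SEs of the tested members ran from 0.08 to 0.25 on the log2 scale, which limits what 3 pools per genotype can show. The cause of these shifts was not tested.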

Other observations

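The array carries 3 control probe sets for 18S ribosomal RNA, the RNA of the small subunit. The one for its 5′ part gave signals of 7291, 6473 and 10502 in control pools and 14582, 15656 and 7680 in mutant pools, so mutant pools 1 and 2 were highest and mutant pool 3 lay among the controls. The one for the middle gave 3390, 4303 and 6654 against 5621, 7073 and 5090, and the one for the 3′ part gave 3367, 3586 and 5861 against 6807, 7440 and 4698, with overlapping groups in both. Labelling starts from the poly(A) tail, which ribosomal RNA lacks, and these probe sets entered no comparison above.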
